A study of Saccharomyces cerevisiae with 8 samples.

Results

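Small nucleolar RNA (snoRNA) genes were examined for peaks of the centromeric histone CENP-A Cse4, which replaces histone H3 in the nucleosome at each yeast centromere. All nuclear genes that the annotation of the *Saccharomyces cerevisiae* R64 (sacCer3) genome types as snoRNA were taken, which gave 76 of 6431 nuclear genes on 15 chromosomes. Of the 76 genes, 8 lay inside the span of a protein-coding gene (hosted), 19 lay within 500 bp of another snoRNA gene in 6 clusters (clustered), and the other 49 lay alone. The choice used no measured value. The annotation described 43 genes as box C/D, 29 as box H/ACA, and gave no family for *SNR4*, *SNR45*, *SNR17A* and *SNR17B*.

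The study asked where overexpressed CENP-A Cse4 goes outside centromeres when the ubiquitin ligase Psh1 cannot remove it. Anti-Flag ChIP and the matching input, micrococcal nuclease (MNase)-digested chromatin, were sequenced in 4 strains, with 1 library of each type per strain. In all 4 strains the endogenous *CSE4* gene was deleted and a *3Flag-CSE4* gene under its own promoter stood at the *URA3* locus. The *3Flag-CSE4* strain carried nothing further, *psh1Δ 3Flag-CSE4* lacked *PSH1*, *pGAL-3Flag-CSE4* had an added copy under the *GAL* promoter, and *psh1Δ pGAL-3Flag-CSE4* had both changes. Cells were cycling and were grown in lactic acid medium, given 2% galactose for 2 h and fixed with formaldehyde, so the *GAL* copy was read only during that time and each list stands for 1 culture. There was no replicate, so no test between strains was possible, and the 95% Wilson intervals given below cover counting error only. *PSH1* held 8 input peaks in each strain that carries the gene and 0 in each *psh1Δ* strain. The lists held 17, 66, 4043 and 14199 ChIP peaks in the order in which the strains are named above, and between 18908 and 40108 input peaks.

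snoRNAs guide the modification of ribosomal RNA in the nucleolus. Box C/D RNAs carry the protein Nop1 to sites of ribose methylation, box H/ACA RNAs carry Cbf5 to uridines that become pseudouridine, and a few, such as U3, U14 and snR30, are needed to cut the ribosomal precursor. In yeast most are copied from their own promoters by RNA polymerase II, several are cut out of longer transcripts, and a few are released from the introns of protein-coding genes. Tbf1, Reb1 and Abf1 are DNA-binding proteins known from yeast promoters, and Tbf1 is known to occupy many snoRNA promoters.

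The sequences below show what a member looks like and where the widest peaks fell. *SNR52*, which is known to be copied by RNA polymerase III, was chosen after its values were seen, as 1 of only 2 snoRNA genes under a ChIP peak in *pGAL-3Flag-CSE4*. It spans chrV:431129-431220 on the minus strand (92 bases, R64), and the capitals mark the C box (TGATGA) and the D box (CTGA).
SNR52: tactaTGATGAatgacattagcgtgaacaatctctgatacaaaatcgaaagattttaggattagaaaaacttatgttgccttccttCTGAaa

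The 3 widest ChIP peaks that touched an upstream window in *pGAL-3Flag-CSE4* are given next on the strand of the gene. They lay upstream of *SNR63* at chrIV:323740-323970 (minus strand, 231 bases, 269 to 499 bp before the gene), of *SNR50* at chrXV:259080-259280 (plus strand, 201 bases, 209 to 409 bp before the gene) and of *SNR36* at chrXV:680930-681120 (minus strand, 191 bases, 64 to 254 bp before the gene). Only the last was wholly inside its 300 bp window. Their GC content was 38.1%, 30.8% and 29.8%. None of the 3 held a Tbf1 core (ACCCTAA), a Reb1 core (TTACCCG) or an Abf1 core (CGT, 7 free bases, GA) on either strand, so nothing is in capitals. Only these exact letters were searched. The *SNR63* peak holds GCCCTAA, which differs from the Tbf1 core in its first letter and was not counted.
SNR63 upstream peak: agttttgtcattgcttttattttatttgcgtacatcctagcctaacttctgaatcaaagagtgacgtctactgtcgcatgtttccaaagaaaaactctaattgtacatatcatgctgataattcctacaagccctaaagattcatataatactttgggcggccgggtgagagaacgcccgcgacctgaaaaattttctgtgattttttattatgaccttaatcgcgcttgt
SNR50 upstream peak: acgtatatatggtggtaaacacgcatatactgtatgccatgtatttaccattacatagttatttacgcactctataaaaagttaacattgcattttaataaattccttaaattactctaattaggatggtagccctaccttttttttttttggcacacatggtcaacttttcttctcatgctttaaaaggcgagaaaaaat
SNR36 upstream peak: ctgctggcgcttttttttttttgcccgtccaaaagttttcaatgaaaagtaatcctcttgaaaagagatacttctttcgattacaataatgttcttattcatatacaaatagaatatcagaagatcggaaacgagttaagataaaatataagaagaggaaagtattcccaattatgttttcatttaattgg

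No snoRNA gene had a ChIP peak on the gene, in the 300 bp upstream or in the 300 bp downstream in either strain without the *GAL* copy. A count of 0 of 76 allows a share of up to 3.95% (3 counts). In *3Flag-CSE4* the background was as bare: 0% of tRNA-free intergenic windows, of gene or flank length, held a peak, as did 0.0167% of protein-coding upstream windows and 0.1% of downstream windows. In *psh1Δ 3Flag-CSE4* these were 0.113% of gene-length and 0.257% of flank-length intergenic windows, 0.267% of protein-coding upstream windows and 0.5% of downstream windows. The peak nearest to any snoRNA gene lay 6678 bp before the start of *SNR43* in *3Flag-CSE4* and 360 bp past the end of *SNR87* in *psh1Δ 3Flag-CSE4*.

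With overexpression, peaks appeared beside snoRNA genes and seldom on them. In *pGAL-3Flag-CSE4*, 2 of 76 genes had a ChIP peak on the gene (2.63%, 95% interval 0.725 to 9.10), against 23.4% of 15932 tRNA-free intergenic windows of 125 bp, the median snoRNA gene length. In the 300 bp upstream 13 genes had a peak (17.1%, 10.3 to 27.1) and in the 300 bp downstream 19 (25.0%, 16.6 to 35.8), against 36.5% of 5067 intergenic windows of that length. The same windows of the 6002 protein-coding genes held a peak in 43.2% upstream and 35% downstream.

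In *psh1Δ pGAL-3Flag-CSE4*, 21 of 76 genes had a peak on the gene (27.6%, 18.8 to 38.6), against 74.5% of intergenic windows. Upstream windows held a peak at 52 genes (68.4%, 57.3 to 77.8) and downstream windows at 55 (72.4%, 61.4 to 81.2), against 85.9% of intergenic windows. Protein-coding genes had a peak upstream in 91.8% and downstream in 74.9%. All 30 genes with a peak on the gene or in a flank in *pGAL-3Flag-CSE4* had one in *psh1Δ pGAL-3Flag-CSE4* as well, and 35 more genes had a peak only there. Each of the 13 upstream peaks and each of the 20 downstream peaks of *pGAL-3Flag-CSE4* was overlapped by a peak of *psh1Δ pGAL-3Flag-CSE4*. The same share over all 4043 peaks of *pGAL-3Flag-CSE4* was not counted, so this overlap is not shown to be particular to snoRNA genes. The study called both lists at 1 fixed height.

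Coverage, the share of bases under a peak, was lowest on the gene in both overexpressing strains. It was higher downstream than upstream in *pGAL-3Flag-CSE4* but higher upstream when *PSH1* was deleted as well. In *pGAL-3Flag-CSE4* peaks covered 0.11% of snoRNA gene bases, 4.91% of upstream bases and 7.16% of downstream bases, against 9.46% of tRNA-free intergenic bases. In *psh1Δ pGAL-3Flag-CSE4* they covered 8.44% of gene bases, 36.6% upstream and 28.5% downstream, against 46.2%. Relative to the background the gene itself was at 0.0116 in *pGAL-3Flag-CSE4*, or 0.0025 without the 8 genes within 500 bp of a tRNA gene, an origin or a long terminal repeat. In *psh1Δ pGAL-3Flag-CSE4* it was at 0.183, or 0.166 without them. tRNA genes, the other short RNA genes compared, were covered over 5.16% and 19.3% of their bases in the same order of strains, and the bodies of protein-coding genes over 0.683% and 5.92%. By count, 21 of 275 tRNA genes (7.64%, 5.05 to 11.4) and 83 of 275 (30.2%, 25.1 to 35.8) had a peak on the gene. The snoRNA shares were 2.63% and 27.6%, so in *psh1Δ pGAL-3Flag-CSE4* the 2 kinds of gene were alike by count. Gene lengths were not matched.

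**Figure D1:**
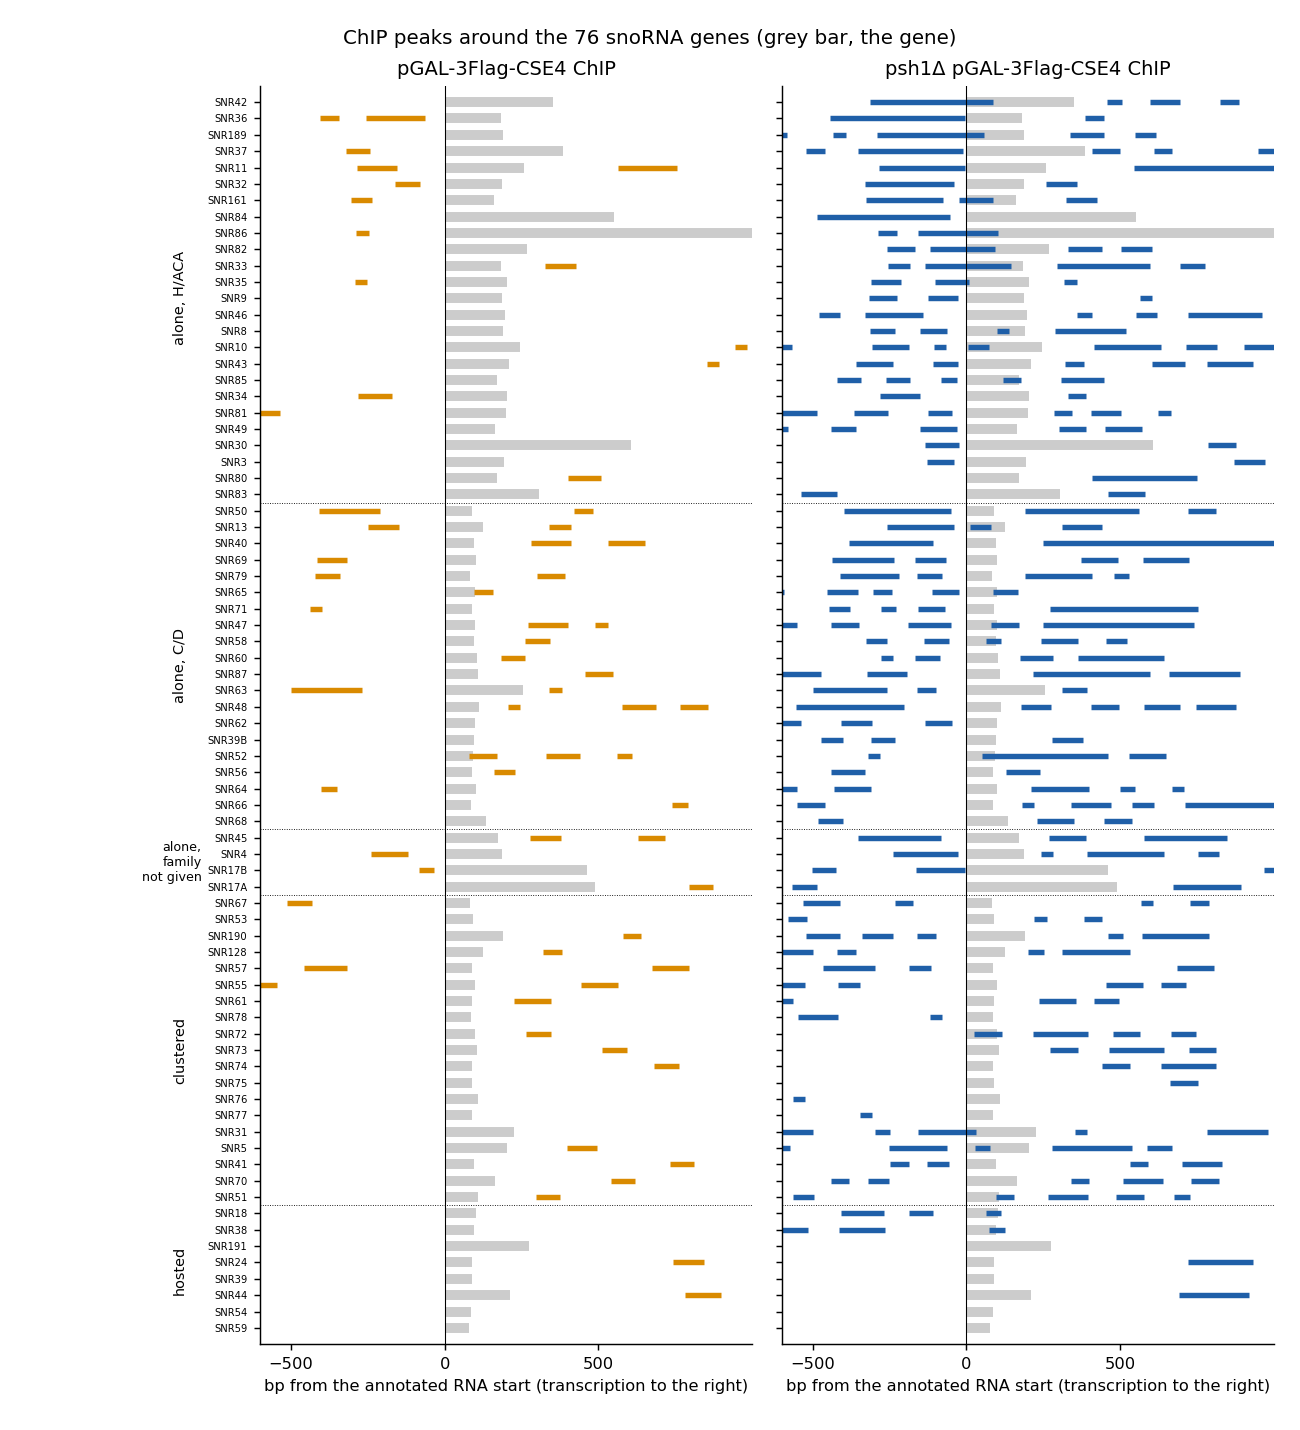
ChIP peaks (coloured bars) from 600 bp before to 1000 bp after the annotated start (x axis, bp) of each of the 76 snoRNA genes (rows, grouped by class and family) in the 2 overexpressing strains, with the gene as a grey bar. Of the genes alone, 42 of 49 had an upstream peak in *psh1Δ pGAL-3Flag-CSE4*, and most grey bars there and nearly all in *pGAL-3Flag-CSE4* were free of peaks.

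The 3 classes differed in their counts. In *pGAL-3Flag-CSE4* all 13 genes with an upstream peak lay alone (13 of 49, 26.5%, 16.2 to 40.3), with 0 of 19 clustered genes, which allows up to 15.8%, and 0 of 8 hosted genes, which allows up to 37.5%. Downstream, 14 genes alone (28.6%), 5 clustered (26.3%) and 0 hosted genes had a peak, against 36.5% of intergenic windows. In *psh1Δ pGAL-3Flag-CSE4* upstream peaks stood at 42 of 49 genes alone (85.7%, 73.3 to 92.9), 8 of 19 clustered (42.1%, 23.1 to 63.7) and 2 of 8 hosted genes (25.0%, 7.15 to 59.1). Downstream peaks stood at 43 genes alone (87.8%, 75.8 to 94.3), 10 clustered (52.6%) and 2 hosted genes (25.0%). Of flank-length intergenic windows 85.9% held a peak, so the genes alone were near that share and the other classes below it. Peaks on the gene stood at 15, 4 and 2 genes (30.6%, 21.1% and 25.0%), against 74.5% of gene-length windows. Peaks covered 49.7% of upstream bases of the genes alone, 15.5% of the clustered and 6.29% of the hosted, so the genes alone were near the intergenic background of 46.2% and the other classes below it. The 19 clustered genes lie in only 6 clusters and many of their windows overlap, while the bound and intervals count each gene as separate. The flanks of hosted genes are mostly gene sequence: 94.0% of their upstream bases and 100% of their downstream bases lay in other annotated genes. For the clustered genes these shares were 24.5% and 31.2%, and for the genes alone 7.42% and 27.6%.

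**Figure D2:**
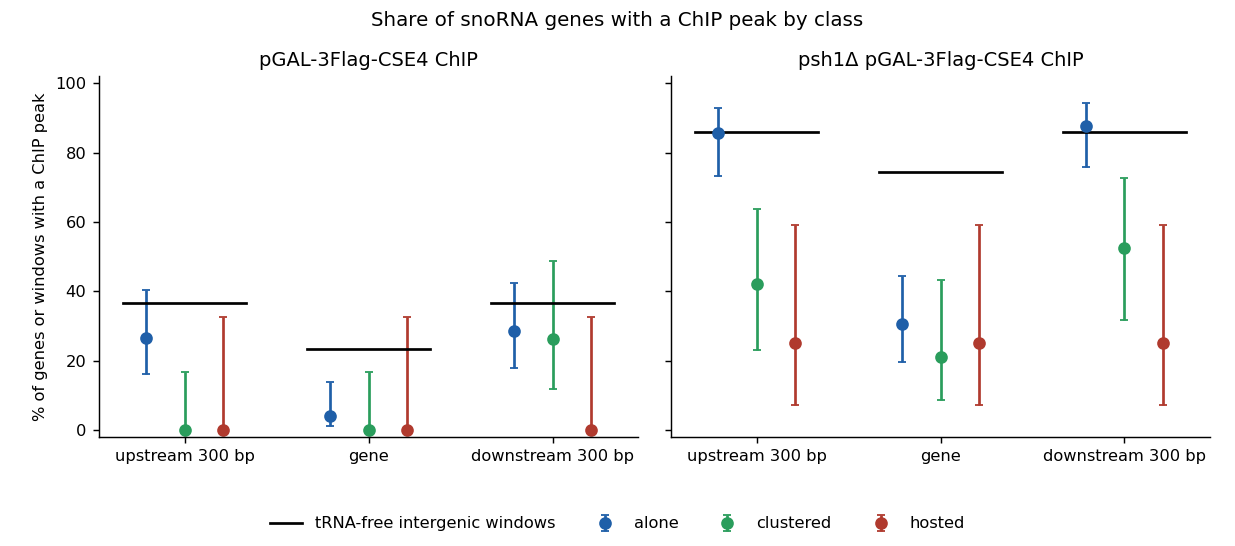
Share of snoRNA genes with a ChIP peak (y axis, %) in the upstream window, on the gene and in the downstream window, by class (points, with 95% Wilson intervals for counting error) in 1 library per strain. Black lines give the share of tRNA-free intergenic windows, and every class lies below the line on the gene, with hosted genes at 0 in *pGAL-3Flag-CSE4*.

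Around the genes alone, peaks of *psh1Δ pGAL-3Flag-CSE4* fell at preferred distances. A peak lay over the position -100 bp from the annotated RNA start in 34 of 49 genes (69.4%), the highest share on the upstream side. The position -260 bp was under a peak in 31 genes (63.3%). Between them, at -180 bp, 17 genes were under a peak (34.7%). The share fell to between 14.3% and 18.4% over the first 70 bp of the RNA and was 6.12% at 20 bp past its end, and it reached 59.2% at 260 bp past the end. At protein-coding genes, whose annotated start is the start codon, the share was 56.0% at -260 bp, 58.7% at -180 bp and 52.8% at -100 bp, and 56.2% at the start itself. Where transcription begins was not examined for snoRNA or protein-coding genes. In *pGAL-3Flag-CSE4* the positions -100 and -260 bp were under a peak at 2 and 7 of the 49 genes, and no gene had a peak over its first 70 bp.

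Input peaks of all 4 strains were also more frequent at these 2 distances than between them. They covered the position -100 bp in 18 genes of *3Flag-CSE4*, 15 of *psh1Δ 3Flag-CSE4*, 28 of *pGAL-3Flag-CSE4* and 16 of *psh1Δ pGAL-3Flag-CSE4*. At -180 bp they covered 4, 5, 5 and 4 genes, and at -260 bp 17, 15, 27 and 18. *pGAL-3Flag-CSE4* was thus the highest of the 4 at both preferred distances, and its input also covered the most intergenic DNA, 44.4% against 35.1%, 32.2% and 24.7% in *3Flag-CSE4*, *psh1Δ 3Flag-CSE4* and *psh1Δ pGAL-3Flag-CSE4*. The part of this difference between inputs in the counts was not tested.

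**Figure D3:**
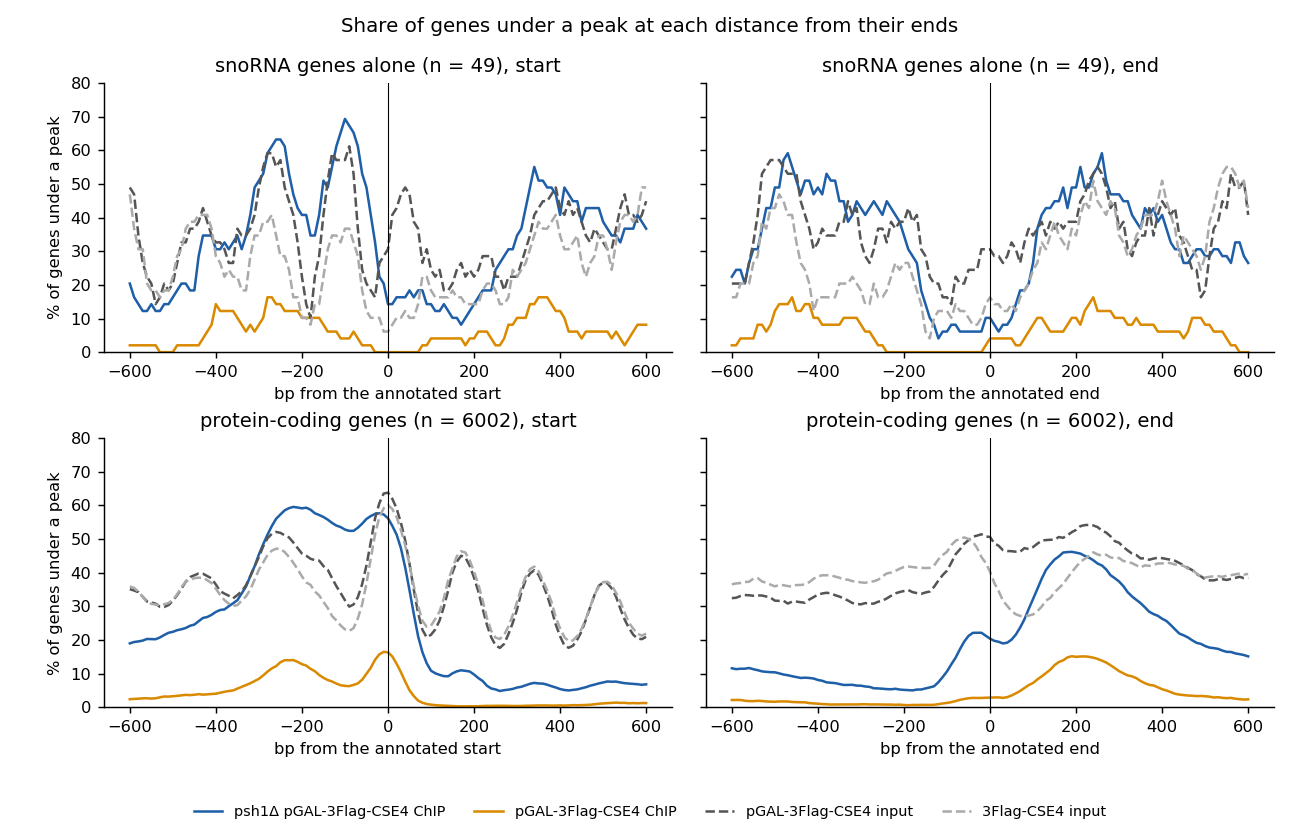
Share of genes under a peak (y axis, %) at each distance in 10 bp steps from the annotated start and end (x axes, bp), for the 49 snoRNA genes alone and for 6002 protein-coding genes (fewer where a window passes a chromosome end), in 2 ChIP and 2 input lists. The blue line of *psh1Δ pGAL-3Flag-CSE4* ChIP has maxima near -260 and -100 bp from the snoRNA start and is low over the gene. The input lines also rise locally near these distances.

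In the input too, a smaller share of snoRNA genes than of gene-length intergenic windows held a peak in each strain. Of the 76 genes, 28 held an input peak in *3Flag-CSE4* (36.8%, 26.9 to 48.1, against 73.6% of intergenic windows), 36 in *psh1Δ 3Flag-CSE4* (47.4%, 36.5 to 58.4, against 69.7%) and 48 in *pGAL-3Flag-CSE4* (63.2%, 51.9 to 73.1, against 81.9%). The lowest count was 23, in *psh1Δ pGAL-3Flag-CSE4* (30.3%, 21.1 to 41.3, against 56%). By bases, some classes came near the background. In *pGAL-3Flag-CSE4* input peaks covered 42.1% of clustered gene bases and 27.3% over all 76 genes, against 44.4% of intergenic bases. In *psh1Δ pGAL-3Flag-CSE4* they covered 23.5% for the box C/D genes alone and 10.5% over all 76, against 24.7%. In the upstream window the counts were 48 (background 86.4%), 47 (83.8%), 65 (88.9%) and 45 (70.5%), or 63.2%, 61.8%, 85.5% and 59.2% of genes. Input peaks lay on 16 genes in every strain and on 22 genes in none, and 20 of these 22 had no ChIP peak on the gene either. Of the 21 genes with a ChIP peak in *psh1Δ pGAL-3Flag-CSE4*, 12 had an input peak of the same strain.

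The 2 families of guide RNA were compared among the genes alone. In *pGAL-3Flag-CSE4*, 11 of 20 box C/D genes had a ChIP peak downstream (55.0%, 34.2 to 74.2) and 2 of 25 box H/ACA genes (8%, 2.22 to 25.0), so the intervals did not overlap. Upstream, 3 of 20 box C/D genes (15.0%, 5.24 to 36.0) and 8 of 25 box H/ACA genes (32.0%, 17.2 to 51.6) had a peak, with intervals that overlapped. The families also differed in their neighbours: the next gene downstream pointed the same way (tandem) for 14 of the 20 box C/D genes and for 8 of the 25 box H/ACA genes. Among tandem genes 8 of 14 box C/D and 2 of 8 box H/ACA genes had a downstream peak, and among convergent genes 3 of 6 and 0 of 17 did. Of protein-coding genes 46.7% with a tandem and 24.5% with a convergent downstream neighbour had such a peak. Other genes filled 17.6% of the downstream bases of the box C/D genes and 37.8% of those of the box H/ACA genes, and over the bases outside other genes peaks covered 17.1% and 2.60%.

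In *psh1Δ pGAL-3Flag-CSE4* downstream peaks stood at 19 of 20 box C/D genes (95%, 76.4 to 99.1) and 21 of 25 box H/ACA genes (84.0%, 65.3 to 93.6), and the intervals overlapped. Of protein-coding genes 88.2% with a tandem and 63.1% with a convergent downstream neighbour had such a peak there. Upstream peaks stood at 16 box C/D (80.0%) and 23 box H/ACA genes (92.0%). Peaks covered 36.0% and 60.7% of upstream bases, with 44.5% and 29.9% of downstream bases. Over all genes alone in *pGAL-3Flag-CSE4*, 10 of 24 with a tandem upstream neighbour had an upstream peak and 3 of 25 with a divergent one. Protein-coding genes showed 51.6% with a tandem and 35.6% with a divergent neighbour. In *psh1Δ pGAL-3Flag-CSE4* the snoRNA counts were 21 of 24 and 21 of 25, against 92.7% and 91.3% of protein-coding genes.

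**Figure D4:**
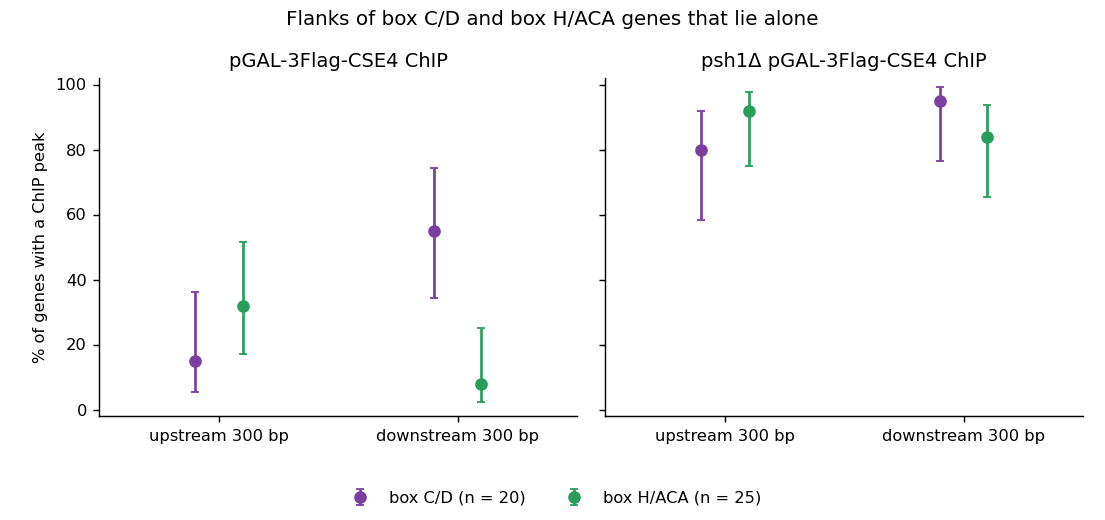
Share of the snoRNA genes alone with a ChIP peak (y axis, %) in the upstream and downstream windows, for 20 box C/D and 25 box H/ACA genes in the 2 overexpressing strains, with 95% Wilson intervals for counting error. In *pGAL-3Flag-CSE4* the downstream points stand apart at 55.0% and 8%.

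The genes with the most coverage differed between strains. Over gene and flanks together, the 10 highest in *pGAL-3Flag-CSE4* were *SNR36* (24.4% of bases), *SNR13* (23.8%), *SNR52* (22.1%), *SNR47* (18.5%), *SNR61* (17.5%), *SNR40* (16.8%), *SNR4* (15.4%), *SNR11* (15.3%), *SNR34* (13.8%) and *SNR50* (13.3%), with *SNR45* next at 13.1%. In *psh1Δ pGAL-3Flag-CSE4* they were *SNR33* (68.8%), *SNR50* (65.4%), *SNR189* (58.6%), *SNR5* (58.3%), *SNR161* (57.6%), *SNR13* (55.9%), *SNR82* (55.2%), *SNR47* (54.5%), *SNR52* (52.5%) and *SNR79* (52.0%), with *SNR42* next at 51.8%. The lists share 4 genes, *SNR13*, *SNR47*, *SNR50* and *SNR52*.

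*SNR33* (chrIII:142364-142546, minus strand), a box H/ACA gene with the tRNA gene *SUF16* 154 bp upstream, had the highest coverage of a gene itself, 80.3% in *psh1Δ pGAL-3Flag-CSE4* and 0% in *pGAL-3Flag-CSE4*. No input peak of any strain lay on it. At *SNR189*, a box H/ACA gene, peaks covered 97.3% of the upstream window in *psh1Δ pGAL-3Flag-CSE4* and 0% of gene plus flanks in *pGAL-3Flag-CSE4*. At *SNR36*, also box H/ACA, the peak printed above lay in *pGAL-3Flag-CSE4*, and the upstream window was covered over 63.7% there while gene and downstream window were at 0%. At *SNR52*, which lies within 500 bp of a long terminal repeat, coverage lay mostly downstream: the 300 bp there were covered over 47.0% in *pGAL-3Flag-CSE4* and 100% with *PSH1* also deleted. In the same order its gene was covered over 13.0% and 45.7%, and its upstream window over 0% and 7%. The other gene under a ChIP peak in *pGAL-3Flag-CSE4*, *SNR65*, a box C/D gene, was covered over 3.00% of its length.

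The snoRNAs that act in cutting the ribosomal precursor are given next. For comparison, over all 76 genes the median coverage of gene plus flanks was 0% in *pGAL-3Flag-CSE4*, where 46 genes were at 0, whereas it was 24.2% in *psh1Δ pGAL-3Flag-CSE4*. The U3 genes *SNR17A* (chrXV:780107-780596) and *SNR17B* (chrXVI:281056-281517) were at 0% and 4.80% of gene plus flanks in that strain and at 10.7% and 15.2% in *psh1Δ pGAL-3Flag-CSE4*. No peak lay on either U3 gene in the ChIP, and the upstream window of *SNR17A* was at 0% in *psh1Δ pGAL-3Flag-CSE4* while that of *SNR17B* was at 53.7%. The 2 genes are near copies, with 77.1% and 75.6% of their 24-base words found once in the genome, so reads of both can be lost to the mapping filter. At the other 74 genes all such words were unique.

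*SNR128*, which encodes U14, and *SNR190* lie in 1 cluster. *SNR128* was at 8.40% of gene plus flanks in *pGAL-3Flag-CSE4*, with 22.9% after deletion of *PSH1*, all of it downstream, and *SNR190* was at 0% and 19.2%. *SNR30*, the long box H/ACA gene for snR30, was at 0% and 16.7% with no ChIP peak on its 606 bp, and *SNR10*, a box H/ACA gene also known to act in precursor cleavage, was at 0% and 42.4%. *SNR4* and *SNR45*, which are known to guide acetylation of ribosomal RNA, were at 15.4% and 13.1% in *pGAL-3Flag-CSE4*, while both were at 44.0% in *psh1Δ pGAL-3Flag-CSE4*, again with none of the gene itself covered. *SNR13*, the box C/D gene used in studies of transcription termination, was at 23.8% and 55.9%, and its upstream window at 33.7% and 73.7%.

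All 49 genes alone had a ChIP peak on the gene or in a flank in *psh1Δ pGAL-3Flag-CSE4*. Their coverage ran from 7.91% to 68.8% of gene plus flanks with a median of 34.3%. Of them, 7 had no upstream peak: the box C/D genes *SNR56*, *SNR64*, *SNR66* and *SNR68*, the box H/ACA genes *SNR80* and *SNR83*, and *SNR17A*. Each had peaks downstream, over 20.3% to 63.7% of the window.

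The 11 genes with no ChIP peak on the gene or in a flank in *psh1Δ pGAL-3Flag-CSE4* were 6 hosted and 5 clustered genes. The hosted genes were *SNR39* in *RPL7A*, *SNR59* in *RPL7B* and *SNR44* in *RPS22B*, all 3 host genes for ribosomal proteins, *SNR24* in *ASC1*, *SNR54* in *IMD4* and *SNR191* in *NOG2*. The other 2 hosted genes had peaks. *SNR18* in *EFB1*, the gene of a translation elongation factor, was covered over 38.2% of its length, and *SNR38* in *TEF4*, another elongation factor gene, over 21.1%. All 8 hosted genes lie in introns, and none had a ChIP peak on the gene or in a flank in *pGAL-3Flag-CSE4*.

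The 5 clustered genes without a peak were *SNR55* on chromosome XII and *SNR77*, *SNR76*, *SNR75* and *SNR74* on chromosome XIII. The last 4 belong to the largest cluster, *SNR78*, *SNR77*, *SNR76*, *SNR75*, *SNR74*, *SNR73* and *SNR72*, which are box C/D genes cut from a shared transcript over 1374 bp (chrXIII:297278-298651, plus strand). In *psh1Δ pGAL-3Flag-CSE4* a stretch of 1379 bp without a ChIP peak held 6 of the 7 genes, and in *pGAL-3Flag-CSE4* a stretch of 11969 bp held all 7. Peaks of *pGAL-3Flag-CSE4* covered only 2.79% of the nuclear genome. From protein-coding starts to the nearest upstream peak of that strain the median was 515 bp and the upper quartile 2802.5 bp. How often such stretches occur elsewhere was not counted. A stretch of 899 bp with the first 4 genes had no peak in any of the 8 lists, input included. Downstream of the cluster peaks covered 27.0% of the 300 bp in *pGAL-3Flag-CSE4*, against 66.7% in *psh1Δ pGAL-3Flag-CSE4*.

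**Figure D5:**
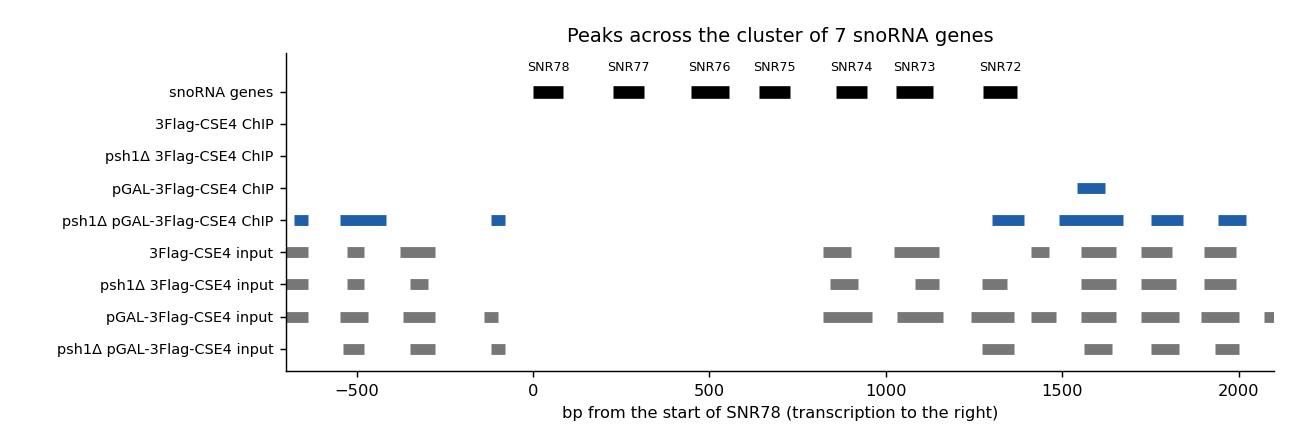
Peaks across the cluster of 7 box C/D genes by distance from the start of *SNR78* (x axis, bp), with the genes in black, ChIP peaks in blue and input peaks in grey for the 4 strains (rows). From before *SNR78* to the end of *SNR75* no row holds a peak over 899 bp.

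Most other clusters also held few or no ChIP peaks, and spans of these lengths elsewhere were not counted. No ChIP peak lay between the first and the last gene of *SNR67* and *SNR53* (438 bp), of *SNR190* and *SNR128* (385 bp) or of *SNR57*, *SNR55* and *SNR61* (539 bp) in any strain. Over *SNR41*, *SNR70* and *SNR51* (543 bp) ChIP peaks covered 2.03% in *psh1Δ pGAL-3Flag-CSE4* and 0% in *pGAL-3Flag-CSE4*. *SNR31* and *SNR5*, a pair of box H/ACA genes that point away from each other and share the region between them, were the exception, with 37.3% of their 649 bp covered in *psh1Δ pGAL-3Flag-CSE4* and 0% in *pGAL-3Flag-CSE4*. Input peaks covered 9.46% to 24.7% of the spans of the first 3 clusters in *3Flag-CSE4*, and 1 input peak or more lay on each cluster in each strain.

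Most upstream windows held no core of a given promoter factor. The share with a core was above that of protein-coding windows for Tbf1 and Reb1, and below it for Abf1. A Tbf1 core (ACCCTAA, both strands) was found in 5 of 76 windows (6.58%, 2.84 to 14.5) and in 2.37% of the 6002 protein-coding windows of 300 bp. A Reb1 core (TTACCCG) was found in 10 windows (13.2%, 7.31 to 22.6) against 7.90%, and an Abf1 core (CGT, 7 free bases, GA) in 18 (23.7%, 15.5 to 34.4) against 30.7%. All Tbf1 and Reb1 cores belonged to genes alone, and 9 of the 10 Reb1 windows to box H/ACA genes. Of the 49 genes alone, 10.2% (4.44 to 21.8) had a Tbf1 core and 20.4% (11.5 to 33.6) a Reb1 core. An Abf1 core stood in 22.4% (13.0 to 35.9) of them. No Tbf1 core lay under an input peak in any strain (0 of 5), against 33.6% to 56.4% of 149 cores upstream of protein-coding genes. Under a ChIP peak lay 1 of 5 in each overexpressing strain, against 6.04% and 48.3% of the protein-coding cores. These counts rest on only 5 cores, and the difference was not tested. Of the 10 Reb1 cores 2 lay under a ChIP peak in *pGAL-3Flag-CSE4*, against 5 in *psh1Δ pGAL-3Flag-CSE4*. Of 485 Reb1 cores upstream of protein-coding genes 3.92% and 41.4% did, in the same order. These are exact matches of letters and not shown binding sites, and other forms of the cores were not searched.

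The 3 windows with a Tbf1 core that were covered most in *psh1Δ pGAL-3Flag-CSE4* are printed on the strand of the gene, to show where the core stands before the annotated RNA start. The Tbf1 core alone is in capitals (in *SNR46* as its reverse complement). The covered bases are counted but not marked. They belong to *SNR13* (chrIV:1402619-1402918, plus strand, 221 of 300 bases covered), *SNR35* (chrXV:759530-759829, minus strand, 191 bases) and *SNR46* (chrVII:545070-545369, plus strand, 161 bases). The core lay 156, 169 and 32 bp before the annotated RNA start. The *SNR13* window also holds an Abf1 core and the *SNR35* window a Reb1 core.
SNR13 upstream: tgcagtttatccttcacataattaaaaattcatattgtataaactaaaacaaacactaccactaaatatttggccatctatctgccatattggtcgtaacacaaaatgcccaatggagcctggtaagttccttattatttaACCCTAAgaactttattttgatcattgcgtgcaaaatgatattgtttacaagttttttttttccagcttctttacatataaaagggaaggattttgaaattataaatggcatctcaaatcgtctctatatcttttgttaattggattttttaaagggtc
SNR35 upstream: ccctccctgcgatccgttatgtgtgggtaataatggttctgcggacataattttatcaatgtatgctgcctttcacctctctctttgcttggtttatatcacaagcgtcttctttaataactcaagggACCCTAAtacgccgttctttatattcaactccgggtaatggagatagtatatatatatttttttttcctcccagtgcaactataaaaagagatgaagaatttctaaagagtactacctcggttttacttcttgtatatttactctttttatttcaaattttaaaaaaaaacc
SNR46 upstream: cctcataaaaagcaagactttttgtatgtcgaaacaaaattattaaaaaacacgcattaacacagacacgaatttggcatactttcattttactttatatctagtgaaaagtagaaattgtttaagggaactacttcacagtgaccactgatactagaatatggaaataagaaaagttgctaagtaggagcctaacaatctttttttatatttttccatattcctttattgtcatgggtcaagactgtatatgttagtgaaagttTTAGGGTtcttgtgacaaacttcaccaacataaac

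A list of 36 protein-coding genes held those that make and mature snoRNAs and also the 8 host genes, which carry snoRNAs in introns. With the host genes counted, 14 of the 36 had an upstream ChIP peak in *pGAL-3Flag-CSE4* (38.9%, against 43.2% of all) and 34 in *psh1Δ pGAL-3Flag-CSE4* (94.4%, against 91.8%). In the latter strain peaks covered a median of 57.2% of their upstream bases, against 57.7% for all. Of the 8 core protein genes, *NOP58* and *SNU13* of the box C/D particle and *CBF5* and *NOP10* of the box H/ACA particle had an upstream peak in *pGAL-3Flag-CSE4*, and *NOP1*, *NOP56*, *NHP2* and *GAR1* had 0. The 8 host genes had 0 upstream peaks in *pGAL-3Flag-CSE4*. All 14 genes with such a peak were thus other listed genes, and the 38.9% understates the share of those genes. In *psh1Δ pGAL-3Flag-CSE4*, 7 of the 8 host genes had an upstream peak. In *pGAL-3Flag-CSE4*, 5 host genes (62.5%) had a downstream peak, against 35% of all protein-coding genes. A count of 5 of 8 is too small to set the downstream share apart from that of all genes. The 1 listed gene with ChIP peaks in the strains without overexpression was *RRP6*, of the nuclear exosome that trims snoRNA ends, which starts 129 bp from the centromere of chromosome XV. Its 1 peak in *3Flag-CSE4* lay on that centromere. In *psh1Δ 3Flag-CSE4* it had 2 peaks, 1 on the centromere and 1 that began 77 bp from it and ran across the start of the gene.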

How the data were processed

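Peak lists for 8 libraries (4 strains, input and ChIP, 1 library each) were used. The authors mapped paired reads to sacCer3 with BWA, kept proper pairs of mapping score 30 or above with SAMtools and inserts of 50 to 240 bp, and called peaks with DANPOS2. They subtracted input from ChIP, scaled ChIP by centromeres, set ribosomal DNA to 0 and called peaks above 1 height, set by the *3Flag-CSE4* centromere peaks. CASAVA is also named in the submitters' processing notes. Tool versions and the input peak settings are not given in the sources used here. The deposited values used here are peak positions in bp (first and last base), another unit than a count or a signal, and the score column was not used. Peak lists hold no read depth. The study's coverage tracks and its read numbers per library were not used here.

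Chromosome, start, end and type of genes came from the R64 RefSeq annotation (SGD R64-5-1), the build of the lists. A peak counted on a window with 1 bp of overlap, and flanks were taken by strand. The background was 5132 regions (2310 kb) between protein-coding genes without a tRNA or other RNA gene, centromere, origin, telomere, long terminal repeat or mobile element. Python 3.11.15 with numpy 2.4.6 was used, and counting was tested on simulated data (3 sets of 49 genes, every placed peak and base recovered). Genes named with values were those in the 10 highest by coverage of gene plus flanks in each overexpressing strain, those without a ChIP peak in *psh1Δ pGAL-3Flag-CSE4*, all hosted and clustered genes, and U3, U14, *SNR30*, *SNR10*, *SNR4*, *SNR45*, *SNR52*, *SNR190* and *SNR13*. Sequences printed were the 3 widest upstream peaks and the 3 most covered windows with a Tbf1 core. The members and lists were chosen with earlier results of these data known. Alternatives were the rule for a hit, peak width and merging, flank length, subsets of members, other backgrounds and cluster distances. No gene was left out.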

Additional observations from a re-analysis of the deposited data

How the results depend on the processing

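Over 35 results and 275 alternative values, 257 stayed within the 95% interval (or within 1.5 times, for counts) of the reported value and 18 moved. The 35 include ChIP results of 0 of 76 genes in the strains without the *GAL* copy. Stricter rules and subsets of members can only return 0 there. For covered ratios the interval treated the covered share as a share of genes, so it is not an interval of the ratio itself. For all 76 genes, the shares of bases covered relative to background stayed below 1 under each alternative run (0.656 to 0.926 upstream in *psh1Δ pGAL-3Flag-CSE4*). With the peak centre, or at least 50% of the peak, required inside the window, snoRNA genes with a ChIP peak on the gene came to 0% (*pGAL-3Flag-CSE4*) or 13.2% (*psh1Δ pGAL-3Flag-CSE4*) under both rules. With flanks of 150 bp, ChIP shares were 6.58% upstream and 11.8% downstream in *pGAL-3Flag-CSE4*, with 50% downstream in *psh1Δ pGAL-3Flag-CSE4*, where the downstream covered ratio was 0.368. Upstream input shares were then 44.7% (*3Flag-CSE4*), 42.1% (*psh1Δ 3Flag-CSE4*), 73.7% (*pGAL-3Flag-CSE4*) and 38.2% (*psh1Δ pGAL-3Flag-CSE4*). With flanks of 500 bp, the upstream ChIP share was 81.6% in *psh1Δ pGAL-3Flag-CSE4*, the upstream input shares were 73.7%, 76.3%, 92.1% and 73.7% in the same order, and an Abf1 core stood in 36.8% of windows. Shorter and longer windows hold fewer and more peaks by construction. No paired analysis was possible because each strain has 1 library of each type and the labels give no replicate numbers. With 1 library per strain, differences between strains have no replicate check, and the read depth of the libraries was not used here. The cluster distance of 250 or 1000 bp left 17 or 19 clustered genes.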
